A study of Mus musculus with 10 samples.

Results

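The genes described here are the 6 actin genes and the 4 tropomyosin genes of the mouse, 10 of the 23417 genes listed in the deposited tables, and they were chosen by name: Acta1, Actc1, Acta2, Actb, Actg1, Actg2, Tpm1, Tpm2, Tpm3 and Tpm4. They were measured by directional mRNA-seq in C2C12, an immortalised line of mouse myoblasts that fuses into multinucleated myotubes after a shift to low-serum medium. Huwe1, an E3 ubiquitin ligase, was knocked down and USP10, a deubiquitinase, was overexpressed, to ask how the ubiquitin system acts on the transcription machinery and on gene expression during muscle differentiation. Each deposited table gives 1 control value and 1 treated value per gene in FPKM, that is, a fragment count corrected for the length of the transcript and the depth of the library.

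The first table holds myoblasts in growth medium at day 0, the second holds cells after 6 days in differentiation medium, and in both a control labelled wildtype stands beside 2 libraries of Huwe1 knockdown cells that carried different hairpin RNAs. The third table holds myotubes at day 8, with a control that carried a non-targeting RNA and again 2 Huwe1 knockdown libraries. The knockdown hairpins were delivered by lentivirus under puromycin selection, into myoblasts for the day 0 and day 6 tables and into already differentiating cultures for the myotubes, so the day 8 cells began to differentiate before Huwe1 was lowered. The fourth table holds day 6 cells with a USP10 cDNA under the EF1a promoter, a stable line represented by 1 library, beside a day 6 control. All groups are the same cell line, the wildtype controls are not labelled as carrying a vector, and the 2 knockdown libraries of each table share 1 pooled column. No value therefore has a replicate error, no p-value is given, and a difference is described by its size, with 2-fold as the limit. At least 1 FPKM in 1 of the 2 columns was asked of a gene before its ratio was counted.

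Huwe1 was 38.3 FPKM in the day 0 control and 15.2 in the knockdown, 35.1 and 21.9 at day 6, and 55.4 and 33.0 in day 8 myotubes. Usp10 was 10.3 FPKM in the control of the USP10 table and 38.3 in the overexpressing line. In the Huwe1 tables Usp10 was 68.5 in the control and 64.2 in the knockdown at day 0, 13.2 and 35.4 at day 6, and 14.5 and 13.1 at day 8. The level of the overexpressing line was therefore near that of the day 6 knockdown and below both day 0 columns. The control columns were estimated at 21900000 fragments at day 0, 29900000 at day 6, 18100000 at day 8 and 7790000 in the USP10 table, and the USP10 library at 27600000. The control column of the USP10 table is named like the day 6 control of the Huwe1 table, but its values differed from it gene by gene, and with each column scaled to the same sum 21.2% of 11459 genes differed at least 2-fold between them. The series lists only 1 wildtype sample of day 6, so no sample is assigned to the control column of the USP10 table. Whether it is a second library is not known. The gap between these 2 day 6 control columns is the only difference between like columns in the FPKM values, and it is set beside the day 6 results. It may not be a spread between libraries. The myoblast and muscle identity of the cells was visible in their markers: Myod1, a myogenic transcription factor, was between 9.30 and 155 FPKM in all 8 columns, Myog, which drives the onset of differentiation, went from 0.164 FPKM in the day 0 control to 619 in the day 6 control, and Myh11 and Myocd, which define smooth muscle, were at or below 0.232 FPKM in all 8 columns. The other 3 smooth muscle markers were not absent: Smtn was between 15.6 and 39.0 FPKM, Cnn1 was 11.8 and 12.5 at day 0 and at or below 1.36 afterwards, and Lmod1 reached 2.85.

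Actin polymerises into the thin filaments along which myosin moves, and mammals make it from 6 genes whose proteins are nearly alike. Actb and Actg1 encode the cytoplasmic forms that build the cortex and stress fibres of dividing cells, Acta2 and Actg2 the forms of smooth muscle, and Acta1 and Actc1 the skeletal and cardiac forms of striated muscle, both of which are used by developing skeletal muscle. When myoblasts fuse, the cytoplasmic actins are switched down and the striated actins are switched on. Tropomyosins are coiled-coil rods that lie along the filament and, with troponin, gate its contact with myosin. Their 4 genes each make several transcripts, with Tpm1 and Tpm2 as the main sources of fast sarcomeric tropomyosin, Tpm3 of slow sarcomeric and of cytoplasmic forms, and Tpm4 mostly of cytoplasmic forms.

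The closeness of the actin genes is shown by the first 60 coding bases of a representative GENCODE transcript of each, because it decides whether short reads can be told apart. Capitals mark bases that differ from Acta1 in an alignment of the coding sequences, and missing bases are not marked.
Acta1: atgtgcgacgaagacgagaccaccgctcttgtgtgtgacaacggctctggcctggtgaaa
Actc1: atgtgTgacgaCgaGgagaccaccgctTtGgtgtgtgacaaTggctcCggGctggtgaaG
Acta2: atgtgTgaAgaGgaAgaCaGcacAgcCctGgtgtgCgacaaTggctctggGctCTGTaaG
Actb: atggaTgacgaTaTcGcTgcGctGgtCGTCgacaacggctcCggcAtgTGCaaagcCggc
Actg1: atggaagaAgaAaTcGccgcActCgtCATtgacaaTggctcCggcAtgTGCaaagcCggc
Actg2: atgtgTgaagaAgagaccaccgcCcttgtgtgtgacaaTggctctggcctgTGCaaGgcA
Over the whole coding sequence the 15 actin pairs were between 81.5% and 88.6% identical, with Actb and Actg1 the closest pair and Acta1 and Actc1 at 86.3%. The 6 tropomyosin pairs were between 58.8% and 74.4% identical. Stretches of 50 bases that also occur in another annotated gene made up 2.22% of the Acta1 transcript, 0.35% of Acta2, 14.2% of Actb and 12.1% of Tpm4, and 0 of Actc1, Actg2, Tpm1 and Tpm2. They made up 56.7% of Actg1, most often shared with the processed pseudogene Gm12715, and 62.4% of Tpm3, most often shared with Tpm3-rs7. How the authors' counting treated such reads is not given in the sources used here, so the levels of Actg1 and Tpm3 are less certain than those of the other members, while at most 2.57% of any member's stretches occurred in another member.

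In the mm10 coordinates of the deposited tables, the striated actins Acta1 and Actc1 lie at chr8:123891758-123894775 and chr2:114047289-114052811, the smooth actins Acta2 and Actg2 at chr19:34240336-34255373 and chr6:83512909-83536251, and the cytoplasmic actins Actb and Actg1 at chr5:142903116-142906724 and chr11:120345690-120348484. Tpm1, Tpm2, Tpm3 and Tpm4 lie at chr9:67022593-67049213, chr4:43513726-43523554, chr3:90072651-90100902 and chr8:72135292-72153129. All are protein-coding genes, and each locus overlapped the gene of the same name in GENCODE M21. That annotation lists 21 transcripts for Tpm1, 6 for Tpm2, 16 for Tpm3 and 2 for Tpm4, and since the deposited values are per gene, sarcomeric and cytoplasmic transcripts of a tropomyosin gene cannot be told apart.

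**Figure D1:**
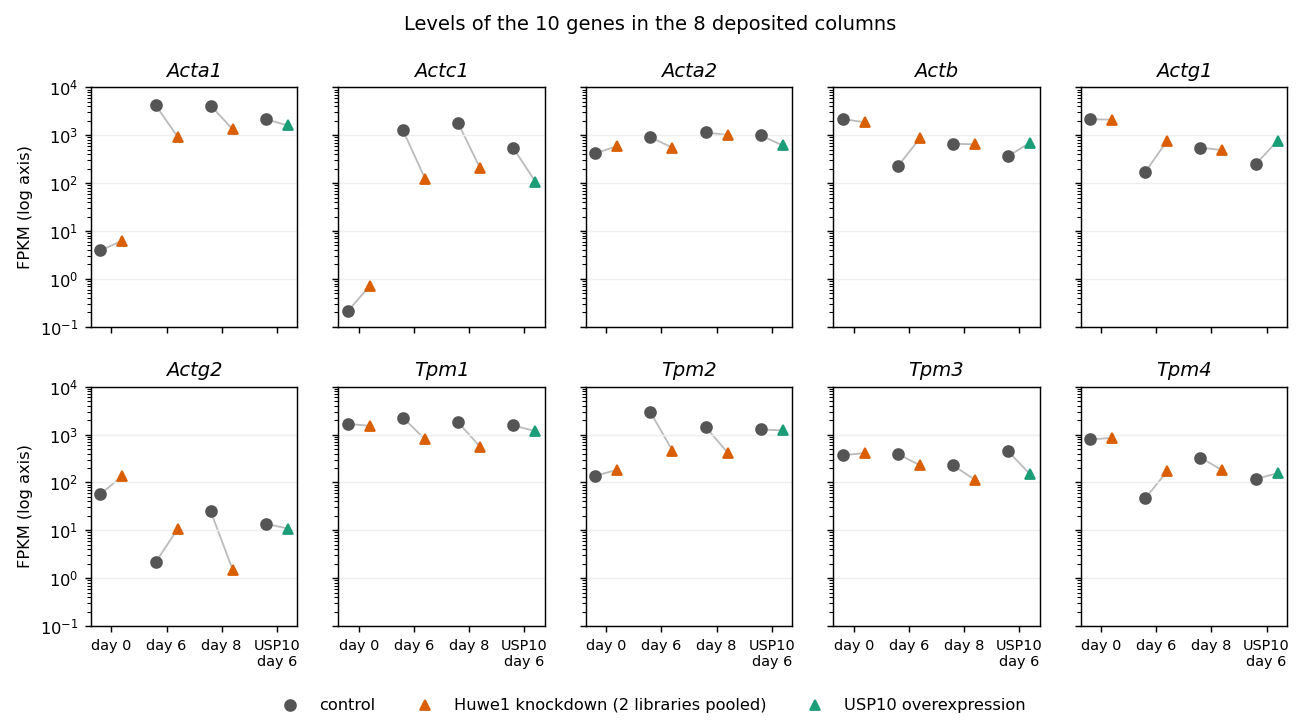
Level of each of the 10 genes in the 8 deposited columns, in FPKM on a log axis, with circles for controls, triangles for Huwe1 knockdown (orange) and USP10 overexpression (green), and a grey line joining the columns of 1 table. Acta1 and Actc1 climb from under 10 FPKM at day 0 to the top of the scale in the differentiated controls, and at day 6 the knockdown and overexpression points of Actb and Actg1 lie above their controls while those of Acta1 and Actc1 lie below.

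Acta1, the skeletal alpha-actin, was 3.93 FPKM in the day 0 control and 6.28 in the day 0 knockdown, 4282 in the day 6 control and 932 in the day 6 knockdown, 4170 in control myotubes and 1325 in knockdown myotubes, and 2164 in the control and 1599 in the line of the USP10 table. It was low in both day 0 columns and at least 932 FPKM in all 6 differentiated columns, with every treated value of a differentiated table under its control. It was 4.59-fold lower in the knockdown at day 6 and 3.15-fold lower at day 8, log2 ratios of -2.20 and -1.65, and 1.35-fold lower with USP10 overexpression. In the day 6 and day 8 controls it stood 11th and 5th among all genes by FPKM.

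Actc1, the cardiac alpha-actin that embryonic and regenerating skeletal muscle also uses, was 0.212 FPKM in the day 0 control and 0.723 in the day 0 knockdown, 1266 and 125 at day 6, 1793 and 205 at day 8, and 544 and 108 in the USP10 table. It had the widest range of the 10 genes, 8476-fold between its lowest and highest column. At day 0 it did not reach 1 FPKM in either column and the control value rests on about 6.81 fragments, so no ratio was counted there. Its log2 ratios were -3.34 at day 6, -3.13 at day 8 and -2.34 with USP10, or 10.1-fold, 8.74-fold and 5.05-fold lower. In these 3 tables the decrease was larger for Actc1 than for Acta1, and its part of the striated actin sum went from 22.8% to 11.8% at day 6, from 30.1% to 13.4% at day 8 and from 20.1% to 6.30% with USP10.

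Actb, the cytoplasmic beta-actin often used as a loading control, was 2180 FPKM in the day 0 control and 1865 in the day 0 knockdown, 226 and 860 at day 6, 665 and 645 at day 8, and 365 and 704 in the USP10 table. Actg1, the cytoplasmic gamma-actin, followed with 2159 and 2115 at day 0, 171 and 775 at day 6, 552 and 487 at day 8, and 248 and 767 in the USP10 table. Both were highest at day 0 and lowest in the day 6 control, and in the day 6 knockdown they were 3.80-fold and 4.52-fold higher than in that control, log2 ratios of 1.93 and 2.18. At day 8 their log2 ratios were -0.04 and -0.18. USP10 overexpression gave 0.95 for Actb, just under the 2-fold limit, and 1.63 for Actg1. The ratio of Actb to Actg1 stayed between 0.881 and 1.47 in all 8 columns.

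Acta2, the smooth muscle alpha-actin that C2C12 myoblasts also make, was 419 FPKM in the day 0 control and 594 in the day 0 knockdown, 906 and 551 at day 6, 1147 and 1010 at day 8, and 994 and 612 in the USP10 table. It had the narrowest range of the 10 genes, 2.74-fold over the 8 columns, and none of its ratios reached 2-fold, with log2 values of 0.50, -0.72, -0.18 and -0.70. Actg2, the smooth muscle gamma-actin, was 56.8 and 136 FPKM at day 0, 2.14 and 10.6 at day 6, 25.0 and 1.51 at day 8, and 13.7 and 10.9 in the USP10 table. Its ratio changed direction between tables, at 2.39-fold higher, 4.92-fold higher, 16.5-fold lower and 1.26-fold lower. The 2 day 6 controls differed 7.58-fold for Actg2, more than the knockdown and its control did, and against the other control its day 6 log2 ratio was -0.48.

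Tpm1, alpha-tropomyosin, was 1673 FPKM in the day 0 control and 1520 in the day 0 knockdown, 2257 and 798 at day 6, 1803 and 555 at day 8, and 1556 and 1174 in the USP10 table. It was already high in myoblasts and was lowest in the 2 differentiated knockdown columns, 2.83-fold and 3.25-fold under their controls. Tpm2, beta-tropomyosin, was 138 and 184 FPKM at day 0, 2925 and 461 at day 6, 1449 and 420 at day 8, and 1283 and 1216 in the USP10 table. It had the largest rise from myoblasts to the day 6 control among the tropomyosins, its highest column being 21.2-fold over its lowest, and it was 6.34-fold lower in the knockdown at day 6 and 3.45-fold lower at day 8. In the USP10 table its log2 ratio was -0.08, although the 2 day 6 controls differed 1.92-fold for it.

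Tpm3 was 370 FPKM in the day 0 control and 410 in the day 0 knockdown, 394 and 228 at day 6, 228 and 113 at day 8, and 445 and 148 in the USP10 table. It was lower in the treated column of all 3 differentiated tables, by 1.73-fold, 2.02-fold and 3.01-fold, so that it passed 2-fold at day 8, though not with each column scaled to the same sum (log2 -0.84), and with USP10. Tpm4 was 792 and 850 FPKM at day 0, 47.0 and 172 at day 6, 330 and 179 at day 8, and 118 and 156 in the USP10 table. It was high in myoblasts and lowest in the day 6 control like the cytoplasmic actins, was 3.65-fold higher in the day 6 knockdown, and had log2 ratios of 0.10 at day 0, -0.88 at day 8 and 0.41 with USP10. The 2 day 6 controls differed 2.96-fold for Tpm4, and against the other control its day 6 knockdown log2 ratio was 0.44.

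**Figure D2:**
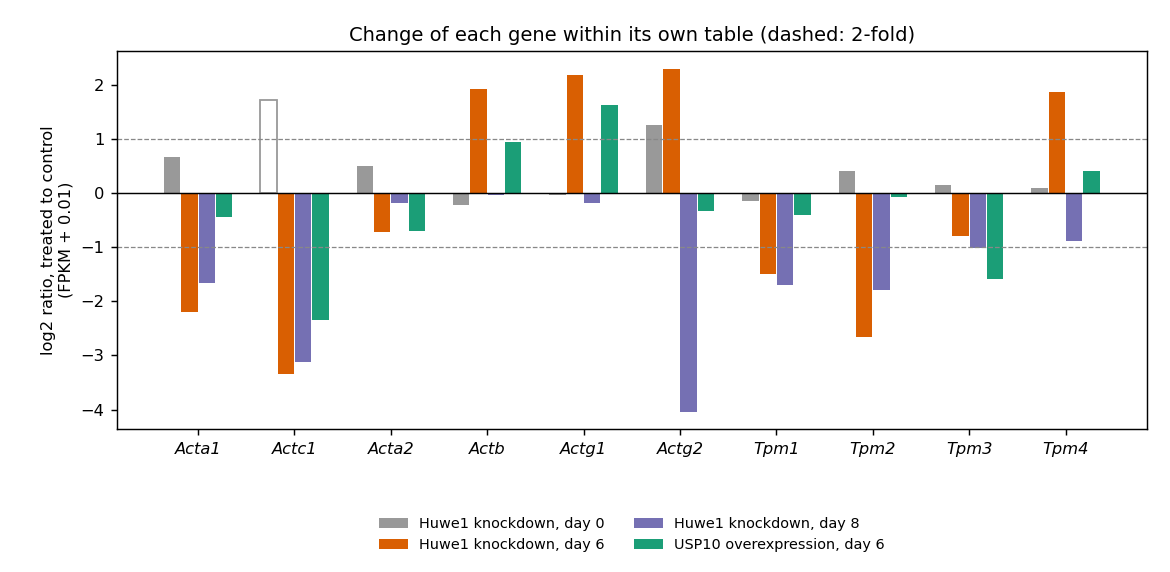
Log2 ratio of treated over control, computed on FPKM + 0.01, for the 10 genes in the 4 tables, with the 2-fold limits dashed and the day 0 bar of Actc1 unfilled because it was under 1 FPKM in both columns. At day 6 the knockdown bars of Acta1, Actc1, Tpm1 and Tpm2 reach below the lower line and those of Actb, Actg1, Actg2 and Tpm4 above the upper line, whereas at day 8 no bar reaches the upper line.

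Read across the set, Huwe1 knockdown at day 0 left 9 genes above 1 FPKM, of which 0 were lower by 2-fold or more, against 1.69% of all genes, and 1, Actg2, was higher by 2-fold or more, against 1.90%. At day 6 all 10 passed, 4 were lower by that much (Acta1, Actc1, Tpm1 and Tpm2) against 13.4% of all genes, and 4 were higher (Actb, Actg1, Actg2 and Tpm4) against 17.6%. At day 8 the lower ones numbered 6 of 10 (Acta1, Actc1, Actg2, Tpm1, Tpm2 and Tpm3) against 10.0%, and the higher ones 0 against 7.89%. USP10 overexpression gave 2 of 10 lower (Actc1 and Tpm3) against 10.0%, and 1 higher (Actg1) against 9.70%. The members' median log2 ratio was 0.15 at day 0, -0.75 at day 6, -1.33 at day 8 and -0.37 with USP10, where the median of all genes was 0.00, -0.01, 0.00 and 0.05. With all columns scaled to the same sum, the day 6 knockdown ratio was larger than the gap between the 2 day 6 controls for 9 of the 10 genes, all but Actg2, and the USP10 ratio for 5 of 10, with Acta1, Actb, Actg2, Tpm2 and Tpm4 inside the gap. With the values as deposited the counts were again 9 and 5, but Tpm1 was inside the gap in place of Actb. Against the control of the USP10 table, scaled in this way, the day 6 knockdown had 5 members lower, with Tpm3 added at -1.07, and 2 higher in place of 4, Actb and Actg1. Against the day 6 control of the Huwe1 table, scaled alike, the USP10 line had log2 ratios of -1.42 for Acta1, -1.26 for Tpm2, 1.64 for Actb, 1.73 for Tpm4 and 2.35 for Actg2, all past 2-fold, so for these genes the choice of control decides the count.

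A share of the summed FPKM of the 6 actins does not depend on how a column was scaled, so shares can be set side by side across tables. In the day 0 control 90.0% of actin FPKM came from the cytoplasmic genes, 9.88% from the smooth muscle genes and 0.0860% from the striated genes. In the day 6 control the striated genes held 80.9% and the cytoplasmic genes 5.80%, and in control myotubes 71.4% and 14.6%. The smooth muscle genes, nearly all Acta2, held 13.3% and 14.0% in these columns. The other day 6 control gave 62.6% striated, 23.3% smooth and 14.2% cytoplasmic.

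With Huwe1 knockdown the day 6 mixture was 32.5% striated, 17.2% smooth and 50.3% cytoplasmic, a striated share 48.5 percentage points under its control. The day 8 knockdown gave 41.7% striated, 27.5% smooth and 30.8% cytoplasmic, a striated share 29.7 percentage points under its control. The USP10 line gave 44.9% striated, 16.4% smooth and 38.7% cytoplasmic, 17.6 percentage points under its control, and the 2 day 6 controls lay 18.4 percentage points apart. With these controls exchanged, the striated share difference was -30.1 points for the day 6 knockdown and -36.0 for the USP10 line, the same direction in both. At day 0 the striated share was 0.148% in the knockdown, and the cytoplasmic share was 84.4%, a difference of -5.65 percentage points, while the Acta2 share was 3.89 points higher. The ratio of striated to cytoplasmic actin FPKM went from 13.95 to 0.646 at day 6, from 4.90 to 1.35 at day 8 and from 4.42 to 1.16 with USP10.

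**Figure D3:**
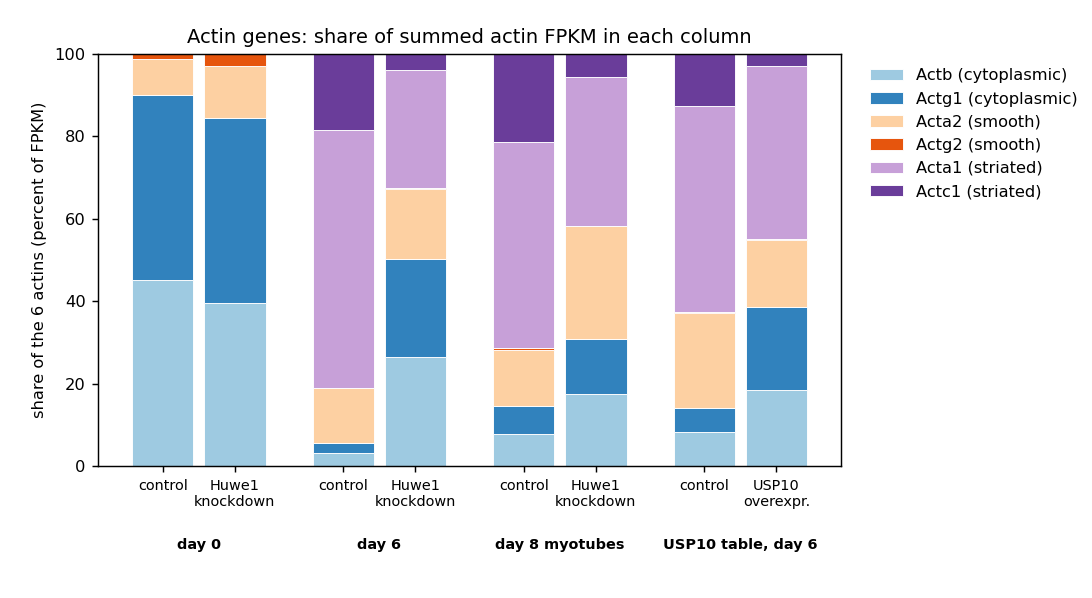
Share of the summed FPKM of the 6 actin genes in each of the 8 columns, in percent, stacked by gene with cytoplasmic actins in blue, smooth muscle actins in orange and striated actins in purple. Blue fills 90.0% of the day 0 control, purple fills 80.9% of the day 6 control, and the treated column of each differentiated table holds less purple and more blue than its control.

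The same change of share had different components at the 2 differentiated stages. At day 6 summed striated actin was 5.25-fold lower and summed cytoplasmic actin 4.11-fold higher, while the sum of all 6 actins was 2.11-fold lower. The size of these day 6 differences depends on the control. As deposited, the cytoplasmic sum was 398 FPKM in this control, 613 in the other day 6 control and 1636 in the knockdown. The striated sum was 5547, 2708 and 1057 in these columns. At day 8 summed striated actin was 3.90-fold lower and summed cytoplasmic actin had a log2 ratio of -0.10, and the sum of all 6 was 2.27-fold lower. With USP10 the striated sum was 1.59-fold lower, the cytoplasmic sum 2.40-fold higher and the sum of all 6 only 1.14-fold lower. In bulk RNA, fewer myotubes in the culture and less of a transcript in each myotube cannot be told apart.

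Among the tropomyosins, Tpm1 and Tpm2 together held 60.9% of the summed FPKM in the day 0 control and 57.5% in the day 0 knockdown, 92.2% and 75.9% at day 6, 85.4% and 77.0% at day 8, and 83.5% and 88.7% in the USP10 table. The differences were -3.43, -16.3, -8.39 and 5.27 percentage points, and the 2 day 6 controls differed by 8.70. At day 6 Tpm2 went from 52.0% to 27.8%, while Tpm1 went the other way, from 40.1% to 48.1%, and Tpm4 went from 0.837% to 10.4%. The tropomyosin sum was 3.39-fold lower at day 6, 3.01-fold lower at day 8 and 1.26-fold lower with USP10, and its log2 ratio was -0.00 at day 0. In the USP10 table Tpm3 went from 13.1% to 5.48% and Tpm2 from 37.7% to 45.1%, and against the other day 6 control the Tpm1 and Tpm2 share differed by -3.44 points, the opposite direction.

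**Figure D4:**
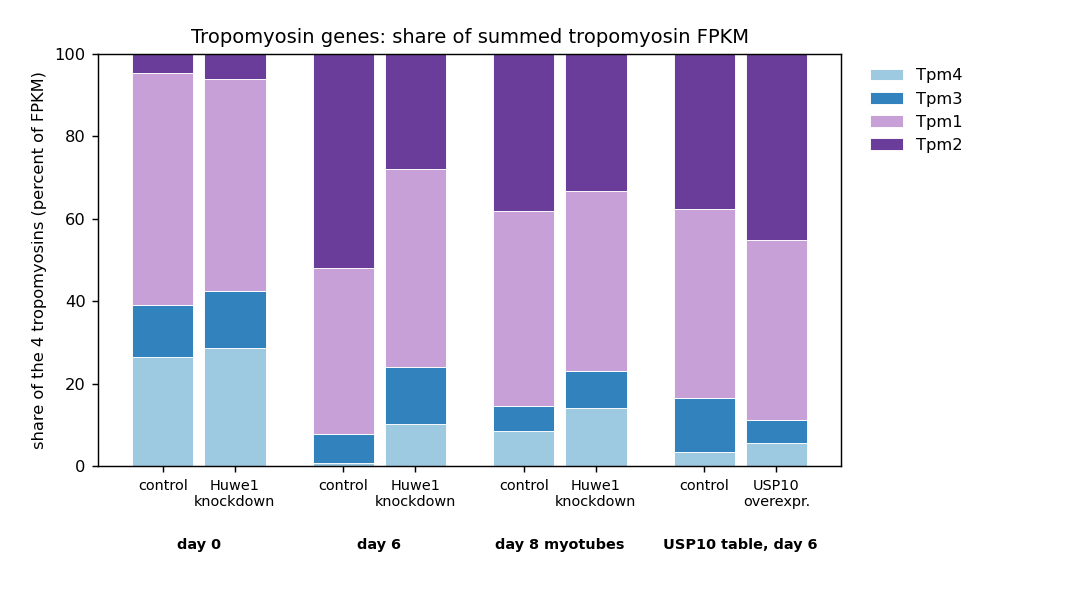
Share of the summed FPKM of the 4 tropomyosin genes in each of the 8 columns, in percent, stacked by gene with Tpm4 and Tpm3 in blue and Tpm1 and Tpm2 in purple. Tpm2 fills 52.0% of the day 6 control and 27.8% of the day 6 knockdown, and Tpm4 is almost absent from the day 6 control at 0.837%.

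Genes listed as markers of other cell types moved with some of these results. Of the 6 fibroblast markers, 5 passed the limit on low values and all 5 were at least 2-fold higher in the day 6 knockdown, against 17.6% of all genes. Their sum went from 22.7 to 3713 FPKM. Most of this came from the matrix proteoglycan gene Dcn (7.94 to 2987) and the surface antigen gene Ly6a (2.54 to 584). Thy1 was listed at 0. The day 0 myoblast control already had Col1a1 at 144 FPKM, Pdgfrb at 20.1, Ly6a at 15.5, Pdgfra at 2.37 and Dcn at 1.27. Only Dcn and Ly6a stayed at least 2-fold higher in the day 6 knockdown against the other day 6 control, as deposited. That control and the knockdown were 57.5 and 107 FPKM for Col1a1 and 2.96 and 5.32 for Pdgfra. For Pdgfrb the knockdown was lower, at 52.1 and 29.2. With USP10 overexpression 2 of 5 were at least 2-fold higher, against 9.70% of all genes, again Dcn (50.3 to 3037) and Ly6a (31.3 to 429), while at day 8 the summed level was 134 in the control and 128 in the knockdown. That day 8 sum was mostly Col1a1 (69.1 and 65.4) and Pdgfrb (44.9 and 42.0), and of the others Dcn (4.19 to 8.75) and Pdgfra (1.95 to 7.74) were higher and Ly6a (13.9 to 4.28) lower. The part of these genes in the actin results was not tested. Of the 6 skeletal muscle markers 4 were at least 2-fold lower at day 6, against 13.4% of all genes, and 4 at day 8, against 10.0%, among them Myog (619 to 27.1 at day 6) and the embryonic myosin gene Myh3 (1218 to 45.4 at day 8). Myf5, a factor of undifferentiated myoblasts, was higher at day 6 (3.51 to 18.5) and with USP10 (4.79 to 20.2), and Myod1 had a log2 ratio of -0.25 at day 8. Of the 6 cardiac markers, Nppa and Myl7 stayed at or under 0.303 FPKM in all 8 columns, while the cardiac myosin gene Myh6 was between 12.9 and 30.5 FPKM in the differentiated controls. Tnni3 was between 5.01 and 9.24 FPKM in these controls. Nppb was 1.89 and 3.12 at day 0 and at or under 0.387 afterwards, and Nkx2-5 was at or under 1.86 in all 8 columns. Of the cardiac markers that passed, 2 of 2 were at least 2-fold lower at day 6, 0 of 3 at day 8 and 3 of 3 with USP10, against 13.4%, 10.0% and 10.0% of all genes.

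Proteins that bind the thin filament come in muscle and general forms, and lists of both were counted in the same way. Of 19 genes for muscle thin filament proteins, 18 passed at day 6, of which 16, or 88.9% against 13.4% of all genes, were lower by 2-fold or more and 1 higher, with a median log2 ratio of -3.24. The 1 higher gene was Xirp2, whose estimate is marked as failed in the day 6 table, where it is listed at 0 in the control and at 7.43 FPKM in the knockdown, while the other day 6 control lists it at 166. Without it 16 of 17 were lower and 0 higher. In day 8 myotubes 15 of 19 were lower, 78.9% against 10.0%, and 0 higher, median -1.85, and with USP10 again 15 of 19 and 0, median -2.78. At day 0, 5 of the 9 that passed were lower, 55.6% against 1.69% of all genes, and 1 was higher, 11.1% against 1.90%. The day 0 median was -1.18, and it was -0.34 over genes with at least 1 FPKM on both sides. Among genes with at least 1 FPKM on both sides, the largest decrease at day 6 was that of Cap2, a muscle cyclase-associated protein that recycles actin monomers, at 196 and 1.40 FPKM, at day 8 the fast troponin C gene Tnnc2, at 1756 and 173 FPKM, and with USP10 the Z-disc crosslinker Actn2, at 80.4 and 1.23. With USP10, Nrap (186 to 0.596) and Cap2 (69.5 to 0.619) went below that limit, by more than Actn2.

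The 31 general actin-binding genes all passed, and 20 of them, or 64.5% against 17.6% of all genes, were at least 2-fold higher in the day 6 knockdown and 4 lower, or 12.9% against 13.4%, median 1.21. This list was not counted against the other day 6 control. At day 8 the counts were 0 higher and 5 lower, or 16.1% against 10.0%, median -0.28, and with USP10 they were 5 higher, or 16.1% against 9.70%, and 2 lower, median 0.49, while at day 0 no gene of the list reached 2-fold. Twf2, a monomer-binding twinfilin, was the largest decrease at day 6, with a control level of 35.1 FPKM and a knockdown level of 9.45. Ezr, which ties actin to the plasma membrane, was the largest decrease at day 8 (55.5 to 17.3) and the largest increase with USP10 (36.0 to 120), and Enah, an elongation factor, was the largest decrease with USP10 (90.4 to 37.6).

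Pairs of muscle and general forms of 1 protein showed the contrast gene by gene. Cap2 had log2 ratios of -7.12, -2.41 and -6.79 at day 6, at day 8 and with USP10, and its general form Cap1 had 1.81, 0.54 and 0.61. The muscle alpha-actinins Actn2 and Actn3 had -6.01 and -3.83 at day 6, -1.85 and -1.51 at day 8, and -6.02 and -2.78 with USP10, and the general forms Actn1 and Actn4 had 1.23 and 1.13, -0.18 and -0.04, and 0.22 and 0.51. Actn3 was also lower at day 0, at 36.1 and 11.0 FPKM. For the pointed-end cap Tmod1 the values were -3.24, -3.02 and -2.55, and for the general form Tmod3 they were 1.60, -0.25 and 0.68. Tmod4 was under 1.54 FPKM in all 8 columns and cannot be read. For cofilin the muscle form also lay below the general form, by less: Cfl2 had -0.36 at day 6, -1.07 at day 8 and 0.27 with USP10, beside 1.21, -0.28 and 0.49 for Cfl1. Against the other day 6 control, as deposited, no general form reached 2-fold in the day 6 knockdown. Control and knockdown were 334 and 418 FPKM for Cfl1, 75.4 and 126 for Cap1, and 104 and 145 for Actn1. They were 137 and 255 for Actn4 and 15.4 and 29.8 for Tmod3. Cap2, Actn2, Actn3 and Tmod1 stayed more than 2-fold lower against that control, and Cfl2 was higher, at 122 and 179.

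**Figure D5:**
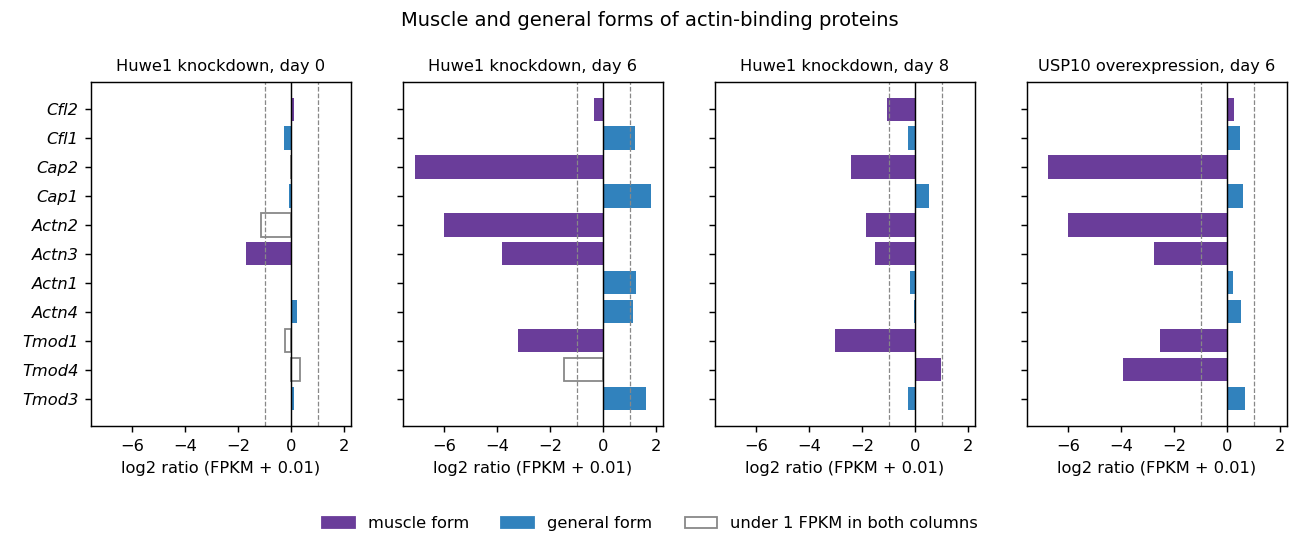
Log2 ratio of treated over control FPKM for muscle forms (purple) and general forms (blue) of cofilin, cyclase-associated protein, alpha-actinin and tropomodulin in the 4 tables, with unfilled bars for genes under 1 FPKM in both columns and the 2-fold limits dashed. At day 6 the purple bars of Cap2, Actn2, Actn3 and Tmod1 point down and all 5 blue bars point up past 2-fold, whereas at day 8 no blue bar reaches 2-fold. Each bar uses the control of its own table, and against the other day 6 control no general form reached 2-fold in the day 6 knockdown.

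Among genes that start new filaments the counts were near those of all genes. Of 18 nucleation genes that matched, all passed, and at day 6, 4 were at least 2-fold higher, or 22.2% against 17.6% of all genes, and 1 lower, median 0.42, with the formin gene Fmnl3 as the largest increase (7.30 to 27.0 FPKM). At day 8, 0 were higher and 2 lower, or 11.1% against 10.0%, median -0.44, led by Cobl (22.0 to 8.88), and with USP10, 2 were higher, or 11.1% against 9.70%, and 1 lower, median 0.18, led by Wasl, an activator of the Arp2/3 complex (28.2 to 108). No gene of this list reached 2-fold at day 0. The 12 genes of the smooth muscle type thin filament had 10 that passed at day 6, 3 of 10 higher, against 17.6% of all genes, and 1 lower with a median of 0.39, where Tagln2 was 7.80 and 49.0 FPKM and the Z-disc protein gene Synpo2 was 117 and 16.6. At day 8, 5 of 11 were lower, 45.5% against 10.0%, and 0 higher, median -0.90, with the actin-binding gene Tagln at 100 and 24.3. With USP10, 2 of 10 were lower, against 10.0% of all genes, and 1 higher, against 9.70%, median -0.27, with Synpo2 at 58.7 and 7.51 and Cnn2 at 30.3 and 64.2. At day 0 the counts were 1 higher and 0 lower of 10, against 1.90% and 1.69% of all genes, median 0.08.

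SRF, the serum response factor, binds a short AT-rich element named the CArG box in many actin promoters, and its coactivators of the myocardin family are held back by free actin monomers. Of 7 genes on this list 6 passed in the 3 differentiated tables and none reached 2-fold except Abra, a muscle protein that activates SRF, which was 47.2 and 4.74 FPKM at day 6 and 48.2 and 5.09 in the USP10 table. That is 16.7% of the genes that passed in each of these 2 tables, against 13.4% and 10.0% of all genes. The medians were -0.14 at day 0, where 5 passed, -0.20 at day 6, -0.14 at day 8 and -0.18 with USP10. Srf itself was 9.44 and 6.92 FPKM at day 6 and 12.5 and 10.7 at day 8. The 18 genes for chaperonin, prefoldin and actin modification that matched all passed, with 2 lower at day 6, or 11.1% against 13.4% of all genes (median -0.30), 0 in either direction at day 0 and day 8 (medians 0.08 and -0.54) and 1 higher with USP10, or 5.56% against 9.70% (median -0.11). Mical3, an actin oxidase, was 24.8 and 10.4 FPKM at day 6, and the prefoldin gene Pfdn4 was 38.3 and 124 with USP10.

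The promoters of all members with an entry were searched for the CArG box and for other short motifs. In the RefSeq windows of GRCm38.p6, which run from 250 bases before to 50 after each start, 8 of the 10 members had an entry, and Actb and Actg2 had none. A CArG box was searched as CC, then 6 bases that are each A or T, then GG, and boxes with a mismatch were not searched. Such a box on either strand was found in 3 of the 8, Acta1, Actc1 and Actg1, beside 1.63% of 32851 promoters. It is shown in capitals within 30 bases of each promoter, written along the strand of the gene.
Acta1: tgcccgacacCCAAATATGGcttgggaagg
Actc1: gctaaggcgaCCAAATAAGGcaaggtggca
Actg1: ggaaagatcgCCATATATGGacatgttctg
These windows lie on the minus strand at chr8:123894829-123894858, chr2:114052903-114052932 and chr11:120348566-120348595 and their boxes lie 73, 47 and 90 bases before the start. At day 6 the genes with a box had log2 ratios of -2.20, -3.34 and 2.18, so a box in this window was found in members of either direction, with Actg1 the only higher one. Actb and Actg2, which were also higher at day 6, could not be searched. The M-CAT element CATTCC was found in Acta1, Acta2 and Tpm1 and in 14.7% of all promoters, and the E-box CANNTG, which myogenic factors can bind, in all 8 members and in 72.3% of all promoters, with both strands searched. A match is a match of letters and does not show binding.

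The day 0 and day 6 knockdowns were made, according to the labels, with hairpins other than those the methods list, so the hairpins are given here in capitals, followed by those labelled for day 8.
Day 0 and day 6, knockdown 1: GGGAACCTGTGATTCGAGA
Day 0 and day 6, knockdown 2: GAGAAGAGGACAACTAGTA
Day 8, knockdown 1: GCACTCTTCATAACTCACTTT
Day 8, knockdown 2: GCACTGCTCATCAAAGATGTT
Each of the 4 matched Huwe1 transcripts in GENCODE M21 and no other gene, and 0 transcripts of the 10 members held any of them. Since the day 6 and day 8 knockdowns differ in hairpin, in time of infection and in control, these differences and the stage of the cells cannot be told apart in the contrast between the day 6 and day 8 actin results.

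The genes whose 4 log2 ratios lay closest to those of a member were ranked by root mean square difference among 5126 or 5127 genes. These genes reached 10 FPKM in at least 1 column of every table, so Acta1 and Actc1, low at day 0, could not be listed as neighbours. Nearest to Acta1 were the transferrin receptor gene Tfrc (0.30 log2 units), 2200002D01Rik (0.30) and Tpm2 (0.33). Nearest to Actb were Ywhaq (0.09), 9430020K01Rik (0.11) and Itpr3 (0.13), and nearest to Tpm4 were Ecm1 (0.14), the beta-tubulin gene Tubb5 (0.18) and Abracl (0.24). Nearest to Acta2 were Cdc37l1 (0.06), Zfp639 (0.07) and Emc3 (0.09). The genes nearest to Actc1 were farther away, Npnt (1.01), Pfkm (1.03) and Klf5 (1.25). These distances include its day 0 log2 ratio of 1.73, from values under 1 FPKM that were not counted elsewhere. Among the genes ranked, Tpm2 had Sap30 (0.50), 2200002D01Rik (0.55) and Fam171a2 (0.55), all farther from it than Acta1 at 0.33. Likeness over 4 ratios is a description, and 3 of the 4 come from Huwe1 tables.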

How the data were processed

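Libraries were made from RNA of 10 C2C12 samples, prepared with the ScriptSeq v2 kit after oligo(dT) selection. The authors mapped reads to mm10 and deposited 1 FPKM value per gene and condition from Cuffdiff in 4 tables. Bowtie2 and Cuffdiff are named in the submitters' processing notes and Tophat in the study's methods, and their versions, the annotation and the read length are not given in the sources used here. Knockdown pairs are pooled into 1 value. The authors' fold changes, test statistics, p-values and q-values are also in the tables and were not used. Log2 ratios of FPKM + 0.01 were taken within a table, for genes that reached 1 FPKM in either column, and shares were taken of the summed FPKM of a family. Tables were normalized separately, so levels across tables are descriptions.

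The members and gene lists were chosen with earlier results of these data known. Of the list genes, the text names in each comparison the largest decrease and increase of at least 2-fold among those that reached 10 FPKM on 1 side and 1 FPKM on both, the muscle and general pairs, and the 3 nearest genes of 6 members. The result of 1 gene that this rule names is not reported here. Other genes (Xirp2, Nrap, Srf, Fhod3, and markers of other cell types) were named after their values were seen. Depth was estimated from the step between the lowest FPKM values of genes with 1 transcript of at least 1500 bases, and pooled columns gave no estimate. Scripts were tested on simulated data. The alternatives were pseudocounts of 0.1 and 1, other filters, centring, rescaling, other share definitions and the other day 6 control. Python 3.11.15, numpy 2.4.6, pandas 2.3.3, matplotlib 3.10.9 and Biopython 1.88 were used with GENCODE M21 and RefSeq tables. Diaph1, Diaph2, Diaph3 and Pfdn6 had no match and are not analysed here.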

Additional observations from a re-analysis of the deposited data

Results flagged for a closer look

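Acta1, Actg2 and Tpm4 had knockdown ratios of at least 1.5-fold in opposite directions at different stages, and none of these differences was tested because each stage has 1 value per condition. For Acta1 the log2 ratio was 0.67 at day 0, -2.20 at day 6 and -1.65 at day 8, differences of -2.87 and -2.33 from day 0, with only 3.93 and 6.28 FPKM at day 0. For Actg2 it was 1.26 at day 0, 2.30 at day 6 and -4.04 at day 8, differences of -5.30 between day 8 and day 0 and -6.34 between day 8 and day 6. For Tpm4 it was 1.87 at day 6 and -0.88 at day 8, a difference of -2.75.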

How the results depend on the processing

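No paired analysis was possible because each control is 1 column and the 2 knockdown libraries of a table share 1 pooled column, and for the same reason no replicate could be left out. Of the 39 member ratios, 0 crossed 2-fold under either pseudocount, any filter or centring, and 1 did when columns were scaled to 1000000, Tpm3 at day 8 (log2 -0.84). Without the filter the day 0 count of higher members was 2, since Actc1 was added.

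The other day 6 control, tried after seeing the data, mattered most. Against it, with columns scaled to 1000000, 8 of 20 ratios crossed 2-fold. The day 6 knockdown then had 5 members lower, with Tpm3 added at -1.07, and 2 higher, with Actg2 reversed at a log2 ratio of -0.48, and the USP10 line had 4 lower and 4 higher. The striated share difference became -30.1 percentage points for the day 6 knockdown and -36.0 for USP10, and the Tpm1 and Tpm2 share difference became -7.58 and, reversed for USP10, -3.44. The cause was not tested.

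With the smooth muscle actins left out, the striated share differences were -54.1 at day 6, -25.6 at day 8 and -27.8 with USP10, and with Acta2 counted as striated they were 3.95 at day 0, -44.8, -16.0 and -24.5. Counting Tpm3 with Tpm1 and Tpm2 gave -2.03, -9.53, -5.46 and, reversed for USP10, -2.34. Adding 1 FPKM to each member moved no share difference by 1 percentage point. Of the list medians, only that of muscle thin filament proteins at day 0 moved by over 0.2, to -0.82 with a pseudocount of 1 and -0.34 when 1 FPKM was asked of both columns, alternatives tried after seeing the data. Depth limits Actc1 at day 0, and the control column of the USP10 table, to which no sample is assigned, had the lowest depth estimate.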
